A study of Mus musculus with 4 samples.

Results

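The 10 genes described here belong to Notch signalling and to the identity of arteries and veins: Sema3g, Efnb2, Hey1, Dll4, Gja4, Notch1, Notch4, Jag1, Nr2f2 and Ephb4. They were chosen by name, as 10 of the 15746 genes used from the count table, and were followed across all 13 annotated cell populations, with their joint presence in single endothelial cells. All 10 had counts in the table. Gene expression was measured by droplet-based single-cell RNA sequencing of Achilles tendon from male C57Bl/6 mice aged 6 weeks, in 4 libraries that form 1 group with no treatment and no altered allele named. The study set out to catalogue the cell types of this tendon. It is not stated if each library is 1 mouse or a pool, so p-values measure the spread between libraries, which may be technical.

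Notch receptors are activated by ligands on a touching cell. The receptor is then cut, its inner part enters the nucleus, binds RBPJ and switches on target genes of the Hey and Hes families. Dll4 and Jag1 are ligands, Notch1 and Notch4 are the receptors best known from endothelium, and Hey1 is a target. In vessels, Notch activity favours arterial identity, for which the membrane ligand Efnb2 (ephrin-B2), the connexin Gja4 (connexin 37) and the secreted semaphorin Sema3g are common markers. The nuclear receptor Nr2f2 (COUP-TFII) holds Notch activity down in veins, where the ephrin-B2 receptor Ephb4 is also typical.

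Libraries 1, 2, 3 and 4 held 580, 246, 256 and 109 cells, with a median of 7440 to 8824 UMIs (unique molecular identifiers, which count each captured transcript once) per cell. No cell barcode was shared between libraries. Population names are the authors'. Levels are given as CPM, the UMIs of a gene per 1000000 UMIs of a population in a library, and are compared within a gene only. The 3 endothelial populations held 190, 74 and 36 cells, and summed levels of 7 endothelial markers (such as Pecam1 and Cdh5) were 6714, 5688 and 7273 CPM there, against 14.4 to 87.5 CPM in the nerve, fibroblast, immune and red blood cell populations. Endothelial cells 3 carried 5 lymphatic markers at a summed 9718 CPM, against 51.2 and 32.4 CPM in endothelial cells 1 and 2, which are called blood endothelial cells here. Pericytes, the contractile cells wrapped around small vessels, summed to 28632 CPM over 11 pericyte and smooth muscle markers, but also carried the endothelial markers at 1088 CPM.

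Endothelial cells and pericytes held most transcripts of the 10 genes. With each cell thinned to 2400 UMIs, so that depth was equal, the median cell had UMIs of 3 of the 10 genes in endothelial cells 1, 2 in endothelial cells 2, 3 in endothelial cells 3 and 2 in pericytes. In tendon fibroblasts 1, 91.3% of cells had none of the 10, and in tendon fibroblasts 2 this share was 83.1%. Nerve cells 3 also had a median of 2, with 10.5% of 19 cells having none, and tendon fibroblasts 3 a median of 1, with 32.6% having none. In the libraries as sums, endothelial cells of all kinds differed from all other cells in 6 of the 10 genes, all 6 higher: Dll4, Efnb2, Ephb4, Hey1, Notch1 and Notch4. Over all 9385 genes tested in that comparison 31.2% were called, and 15.1% were called higher. The receptor Ephb4 was at 234 ± 15.5 CPM in endothelial cells and at 14.0 ± 1.27 CPM in all other cells (SD, n = 4), a log2 fold change of 3.68 ± 0.18 (edgeR adjusted p = 1.14e-05). Notch4 was at 101 ± 13.3 against 2.56 ± 1.91 CPM and Hey1 at 48.1 ± 3.96 against 11.7 ± 8.13 CPM. The other 4 genes, Sema3g, Gja4, Jag1 and Nr2f2, were not called by edgeR's quasi-likelihood test, with adjusted p-values of 0.126, 0.673, 0.504 and 0.0895. Outside endothelium they were found in nerve cells (Sema3g), pericytes (Gja4, Jag1 and Nr2f2) and 1 fibroblast population (Nr2f2), as described below. Called genes were found outside endothelium too, such as Notch1 and Hey1 in pericytes and Efnb2 in bursal fibroblasts. The part of such places in the calls was not tested. The make-up of the other cells also varied, with 9 tendon fibroblasts 1 in library 2 and 83 in library 3. Sema3g and Nr2f2 were called without library 2, at adjusted p-values of 0.0075 and 0.0218.

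**Figure D1:**
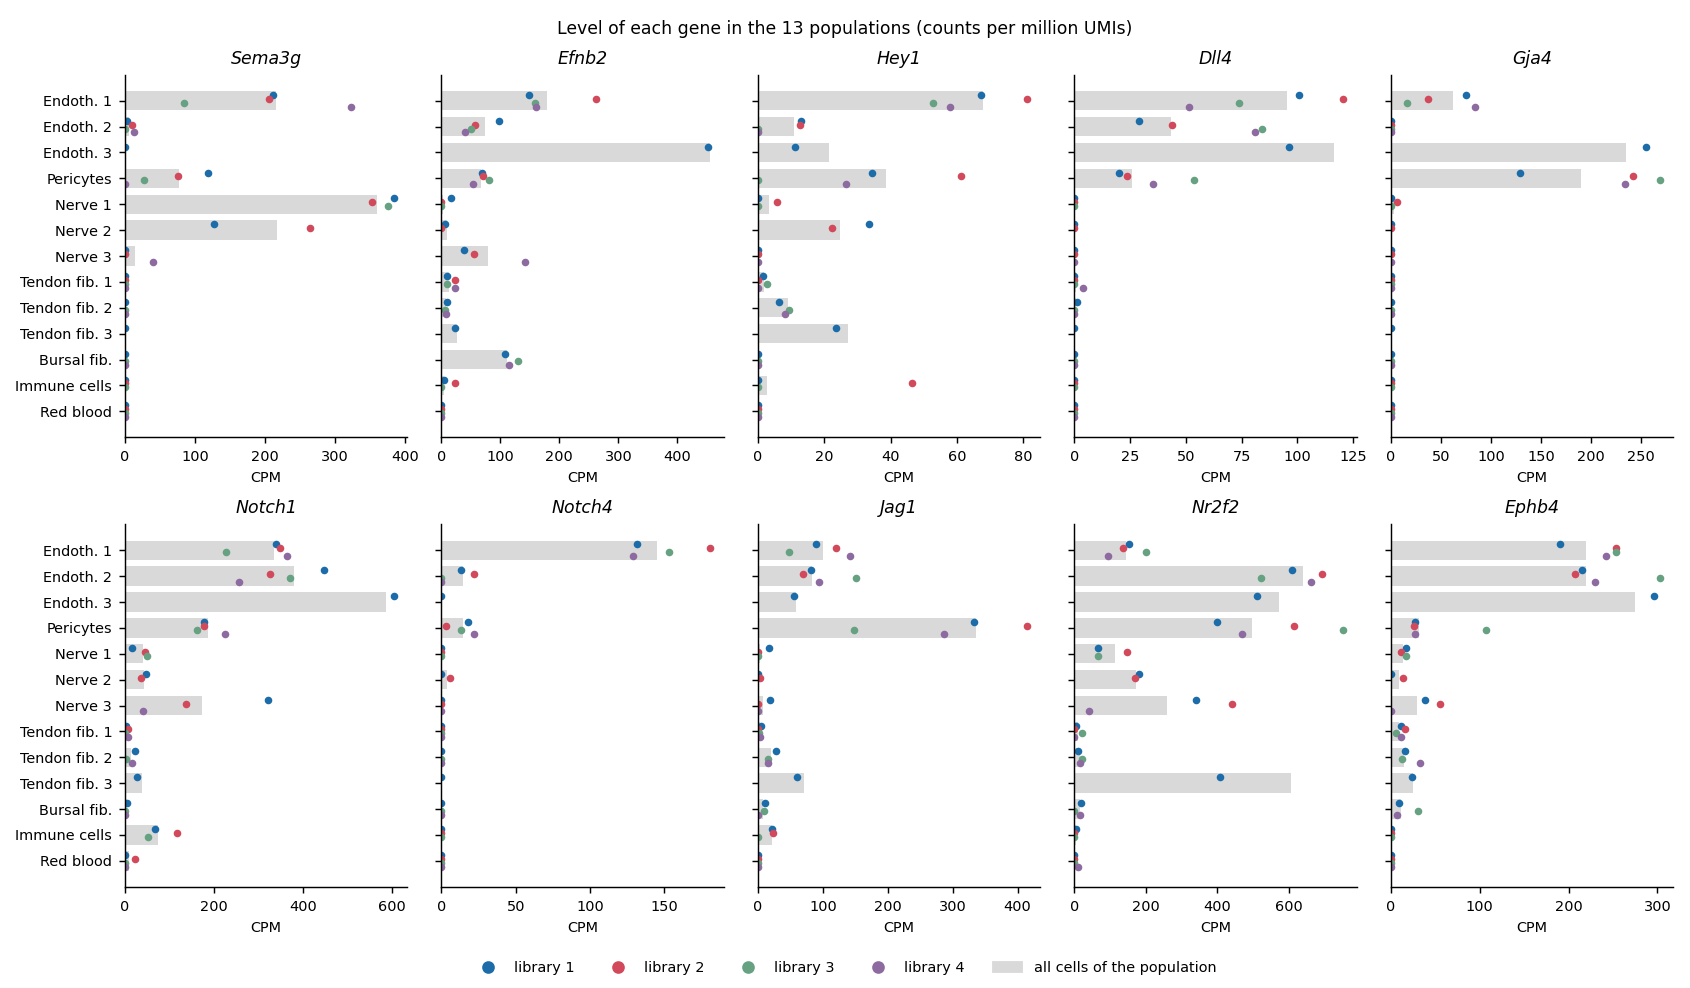
Level of each of the 10 genes (CPM, x axis, scale of its own for each gene) in the 13 populations (y axis). Bars give all cells of a population together and points give single libraries with 5 or more cells of it. Dll4, Ephb4 and Notch1 are highest in the 3 endothelial populations, Sema3g has tall bars in nerve cells 1 (360.0 CPM) and nerve cells 2 (218 CPM), and Gja4 and Jag1 are high in pericytes.

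The stretches just upstream of 4 of these genes are shown because the genes part into opposite patterns below: Sema3g, Efnb2 and Gja4 on the side of endothelial cells 1, and Nr2f2 on the side of endothelial cells 2. Sequences and coordinates are from RefSeq on GRCm38.p6, 5′ to 3′ on the strand of the gene and ending at the gene's start. Sema3g lies on the plus strand, with chr14:31217623-31217859 shown, and 13 bases nearest the RefSeq start were left out because GENCODE M21 begins the gene there. The other 3 lie on the minus strand, with chr8:8661243-8661492 shown for Efnb2, chr4:127314040-127314289 for Gja4 and chr7:70366747-70366996 for Nr2f2. Capitals mark GC boxes (GGGCGG, or CCGCCC on the other strand) and the TATA box (TATAAA, or TTTATA on the other strand).
Sema3g: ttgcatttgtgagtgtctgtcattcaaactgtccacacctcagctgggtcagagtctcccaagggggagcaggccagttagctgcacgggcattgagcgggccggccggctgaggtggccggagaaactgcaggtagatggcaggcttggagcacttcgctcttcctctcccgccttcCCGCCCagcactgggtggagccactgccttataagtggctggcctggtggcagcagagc
Efnb2: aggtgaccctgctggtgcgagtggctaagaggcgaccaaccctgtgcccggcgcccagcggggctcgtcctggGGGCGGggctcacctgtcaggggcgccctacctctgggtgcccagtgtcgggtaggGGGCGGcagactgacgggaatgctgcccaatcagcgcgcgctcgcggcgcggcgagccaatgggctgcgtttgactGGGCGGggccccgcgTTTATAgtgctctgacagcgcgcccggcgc
Gja4: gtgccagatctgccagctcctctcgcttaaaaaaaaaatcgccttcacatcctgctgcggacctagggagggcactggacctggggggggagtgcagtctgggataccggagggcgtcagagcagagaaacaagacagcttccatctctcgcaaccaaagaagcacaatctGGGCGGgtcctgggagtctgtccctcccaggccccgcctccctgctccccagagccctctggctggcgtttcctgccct
Nr2f2: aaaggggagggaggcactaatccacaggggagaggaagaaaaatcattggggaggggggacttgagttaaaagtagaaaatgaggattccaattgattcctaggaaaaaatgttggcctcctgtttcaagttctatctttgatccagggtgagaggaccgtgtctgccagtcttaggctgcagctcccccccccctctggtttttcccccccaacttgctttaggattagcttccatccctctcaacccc
The share of G and C was 72.0% for Efnb2, 61.6% for Sema3g, 61.2% for Gja4 and 50% for Nr2f2, beside a median of 52.4% over 32851 RefSeq promoters of 250 bases. Efnb2 held 3 GC boxes and a TATAAA on the other strand (TTTATA as printed) that starts 30 bases before the gene. Sema3g and Gja4 held 1 GC box each, and Nr2f2 held neither motif. Of the 10 genes, 9 had an entry, and 6 of these 9 held a GC box, against 32.7% of all promoters. TATAAA (either strand) was in 1 of 9 and in 12.4% of all promoters. The RBPJ core TGGGAA (either strand) was in 0 of 9 and in 21.6% of all promoters. These letters are a description of short windows, and nothing about the factors was measured.

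The first comparison was endothelial cells 1 against endothelial cells 2 of the same library. Endothelial cells 1 carried more of the arterial markers Sema3g, Efnb2 and Gja4, of the receptor Notch4 and of the target Hey1, while endothelial cells 2 carried more Nr2f2. Notch1, Jag1 and Ephb4 did not separate the populations. Of the 9 genes that passed the low-count filter, 5 were called higher (Sema3g, Notch4, Hey1, Efnb2 and Dll4) and Nr2f2 was called lower in endothelial cells 1. Over all 5126 genes tested, 18.2% were called, 7.74% higher and 10.5% lower; without library 1 and without library 2, 616 and 484 genes were called in place of 933. The median log2 fold change was 1.03 over these 9 genes and 0.02 over all genes tested. Gja4 did not pass the filter. Values below are fold changes of endothelial cells 1 over 2 from edgeR's quasi-likelihood test with Benjamini-Hochberg adjustment, with SE, in 4 libraries.

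Among the ligands, Dll4 stood at 101, 121, 73.9 and 51.6 CPM in endothelial cells 1 of libraries 1 to 4, and at 28.8, 44.0, 84.1 and 81.0 CPM in endothelial cells 2. Libraries 1 and 2 had more in endothelial cells 1 and libraries 3 and 4 had more in endothelial cells 2. In libraries 3 and 4 the values of endothelial cells 2 rest on only 5 and 6 UMIs. The fitted log2 fold change was 1.03 ± 0.34 (edgeR adjusted p = 0.0452). This call was lost with DESeq2 (adjusted p = 0.468), without the library block (0.0672), without library 1 (0.479), without library 2 (0.396) and with clusters rebuilt as described below (0.363), and p ran from 0.0027 to 0.479 over 11 alternatives. Jag1 stood at 89.0, 121, 47.5 and 142 CPM in endothelial cells 1 and at 81.1, 69.1, 151 and 94.6 CPM in endothelial cells 2, so the groups overlapped. In library 3 both Jag1 values rest on 9 UMIs. The fitted difference was 0.15 ± 0.29 on the log2 scale (edgeR adjusted p = 0.812).

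Of the receptors, Notch4 was called and Notch1 was not. Notch4 stood at 132, 181, 153 and 129 CPM in endothelial cells 1 and at 13.1, 22.0, 0 and 0 CPM in endothelial cells 2. Every library of the first group was above every library of the second, whose values rest on 5, 7, 0 and 0 UMIs. The log2 fold change was 3.33 ± 0.36 (edgeR adjusted p = 4.26e-06). Notch1 stood at 339, 349, 227 and 364 CPM in endothelial cells 1 and at 447, 327, 370.0 and 257 CPM in endothelial cells 2. Its groups overlapped, higher in 2 of 4 libraries, with a log2 fold change of -0.20 ± 0.19 (edgeR adjusted p = 0.575). The target Hey1 stood at 67.3, 81.1, 52.8 and 58.0 CPM against 13.1, 12.6, 0 and 0 CPM, without overlap. The values of endothelial cells 2 rest on only 5, 4, 0 and 0 UMIs. Hey1 had a log2 fold change of 2.63 ± 0.43 (edgeR adjusted p = 0.000301).

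Arterial markers were higher in endothelial cells 1 in all 4 libraries. Sema3g stood at 212, 206, 84.4 and 322 CPM in endothelial cells 1 and at 2.62, 9.42, 0 and 13.5 CPM in endothelial cells 2. Library 3 was the lowest of the first group and was still above all of the second, whose values rest on 1, 3, 0 and 1 UMIs. The log2 fold change was 4.97 ± 0.39 (edgeR adjusted p = 1.03e-07). Efnb2 stood at 149, 262, 158 and 161 CPM against 96.8, 56.5, 50.5 and 40.5 CPM, with no overlap and with library 2 the highest. In libraries 3 and 4 the values of endothelial cells 2 rest on only 3 UMIs each. The Efnb2 log2 fold change was 1.35 ± 0.28 (edgeR adjusted p = 0.00224), and without library 2 it was 0.98 and not called (adjusted p = 0.0819). Gja4 stood at 75.2, 37.4, 15.8 and 83.8 CPM in endothelial cells 1, a total of 123 UMIs, and had 0 UMIs in all 74 endothelial cells 2. Against a floor of 3 counts over all endothelial cells 2, it was at least 17.2-fold higher in endothelial cells 1.

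Of the venous genes, Nr2f2 stood at 153, 137, 201 and 93.5 CPM in endothelial cells 1 and at 609.8, 694, 521 and 662 CPM in endothelial cells 2. The groups lay far apart in every library, with a log2 fold change of -2.21 ± 0.21 (edgeR adjusted p = 8.92e-07). Ephb4 stood at 189.9, 254, 253 and 242 CPM against 215, 207, 303 and 230 CPM, and the groups overlapped. The Ephb4 log2 fold change was -0.07 ± 0.18 (edgeR adjusted p = 0.867). The ephrin-B2 ligand thus differed between the populations in the test while a difference in its receptor was not detected.

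**Figure D2:**
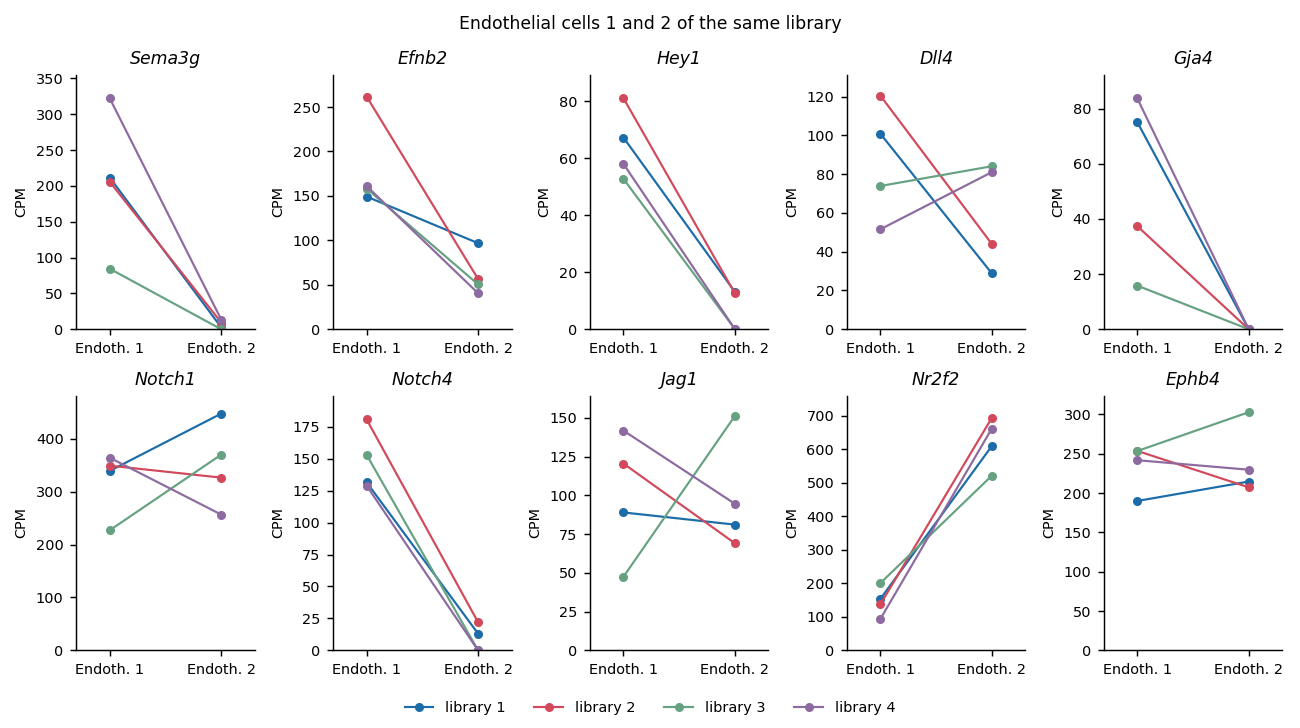
Level of the 10 genes (CPM, y axis from 0) in endothelial cells 1 and 2, with a line joining the populations of the same library. All 4 lines fall for Sema3g, Efnb2, Hey1, Gja4 and Notch4 and all 4 rise for Nr2f2, while lines cross for Dll4, Notch1, Jag1 and Ephb4.

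The authors had formed these populations with the counts tested here, which makes p-values between them too small. For that reason each UMI was given at random to either of 2 portions with equal chance, the blood endothelial cells were clustered on the first portion without the 10 genes, and the second portion was tested. The clusters matched the authors' names in 247 of 264 cells. In the second portion Sema3g, Efnb2, Notch4 and Nr2f2 were called by edgeR, with log2 fold changes of 3.74, 1.21, 3.28 and -1.78. Hey1 is left out of this statement because it had no value under that setting.

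Of 34 further Notch pathway genes, 20 were tested, 1 was higher and 2 were lower in endothelial cells 1, no larger a share than the 18.2% of all genes. Their median log2 fold change was 0.00. The ligand Jag2 was at 191 ± 23.6 against 76.2 ± 11.4 CPM (SD, n = 4), a log2 fold change of 1.29 ± 0.22 (edgeR adjusted p = 0.000417). The ligand Dll1 went the other way, at 44.6 ± 10.8 against 270.1 ± 59.0 CPM (SD, n = 4), a log2 fold change of -2.55 ± 0.23 (edgeR adjusted p = 6.84e-07). Psen2, a catalytic subunit of the γ-secretase that cuts the receptor, was lower in endothelial cells 1 at -1.44 on the log2 scale. Each blood endothelial population thus had a Notch ligand that was higher there than in the other.

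Of 17 further arterial genes, 11 were tested, 5 were higher (Unc5b, Cxcl12, Sox17, Nrp1 and Sox18) and Fbln2 was lower in endothelial cells 1. Cxcl12, a chemokine, was at 5181 ± 1001 against 614 ± 167 CPM (SD, n = 4) and Sox17, a transcription factor of arterial endothelium, was at 322 ± 71.6 against 101 ± 40.6 CPM. Of 15 further venous genes, 13 were tested, 11 were lower and 0 were higher, among them the adhesion molecule Selp (7.73 ± 7.89 against 850.0 ± 440.4 CPM) and Vwf (80.1 ± 22.9 against 982 ± 432 CPM). Capillary genes were also on the side of endothelial cells 1, with 8 of 9 higher, such as Car4 and Rgcc. Among partners of the listed ligands and receptors, Nrp1 and Plxna2, subunits of semaphorin receptors, were higher and Nrp2 and Sema3f were lower.

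Other RNA moved with the comparison. All 3 red blood cell genes tested were higher in endothelial cells 1, where the list of 4 summed to 195 to 7368 CPM over the libraries, against 67.3 to 459 CPM in endothelial cells 2. Of 11 pericyte and smooth muscle markers, 5 were tested and Tagln was lower. Their sum was 607 to 1608 CPM in endothelial cells 1 and 1617 to 3066 CPM in endothelial cells 2, with none at 0 in either. Of 16 genes that respond to tissue dissociation, 9 were lower and 2 were higher in endothelial cells 1. Their part in the differences was not tested.

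The next comparison set blood endothelial cells (1 and 2 together) against pericytes. Pericytes held more of the ligand Jag1, of the connexin Gja4 and of Nr2f2, and endothelial cells held more Dll4, Notch1, Notch4, Efnb2 and Ephb4. All 10 genes were tested, 5 were higher and 3 were lower in endothelial cells. Over all 5775 genes 34.8% were called, 18.7% higher and 16.1% lower. Fold changes are of endothelial cells over pericytes in 4 libraries.

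Jag1 stood at 86.8, 100, 72.3 and 133 CPM in blood endothelial cells of libraries 1 to 4 and at 332, 414, 148 and 287 CPM in pericytes. The pericyte values were all above the endothelial ones, with library 3 the lowest pericyte value. The log2 fold change was -1.76 ± 0.23 (edgeR adjusted p = 0.000164). Dll4 had the opposite order, at 81.1, 90.0, 76.3 and 57.2 CPM against 20, 23.3, 53.8 and 35.3 CPM. Its log2 fold change was 1.39 ± 0.32 (edgeR adjusted p = 0.00575), and without library 1 it was 1.09 and not called (adjusted p = 0.0726). The ligands Dll4 and Jag1 thus had opposite orders.

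Gja4 stood at 54.5, 22.5, 12.1 and 67.7 CPM in blood endothelial cells and at 129, 242, 269 and 234 CPM in pericytes, without overlap. The Gja4 log2 fold change was -2.40 ± 0.38 (edgeR adjusted p = 0.000656). Nr2f2 stood at 278.5, 359, 277 and 203 CPM against 399.5, 615, 753 and 468 CPM in pericytes, again without overlap. For Nr2f2 the log2 fold change was -1.06 ± 0.19 (edgeR adjusted p = 0.00148). Both genes are commonly read as markers of an endothelial type. Taken on their own populations, pericytes at 559 ± 158 CPM and endothelial cells 2 at 622 ± 75.3 CPM (SD, n = 4) had Nr2f2 levels within each other's spread.

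Among the receptors, Notch4 stood at 99.1, 118, 117 and 104 CPM in blood endothelial cells and at 18.2, 2.92, 13.4 and 22.1 CPM in pericytes. The groups lay apart, with a log2 fold change of 2.79 ± 0.38 (edgeR adjusted p = 0.000206). Notch1 stood at 369, 340.1, 261 and 343.5 CPM against 178, 178, 161 and 225 CPM. Its groups did not overlap, and the log2 fold change was 0.74 ± 0.18 (edgeR adjusted p = 0.00906). That call was lost without library 1 (adjusted p = 0.0827) and with cells thinned to 2400 UMIs (adjusted p = 0.154). Both receptors thus had more transcript in endothelial cells, though the Notch1 call depended on the setting.

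The ephrin pair had the same direction. Ephb4 stood at 197, 235, 265 and 239 CPM in blood endothelial cells and at 27.2, 26.2, 108 and 26.5 CPM in pericytes, where library 3 rests on 8 UMIs. Its groups lay apart, with a log2 fold change of 2.60 ± 0.28 (edgeR adjusted p = 4.82e-05). Efnb2 stood at 135, 180.1, 133 and 138 CPM against 69.0, 70, 80.7 and 53.0 CPM, also without overlap, with a log2 fold change of 1.03 ± 0.20 (edgeR adjusted p = 0.00249). Endothelial cells 2 alone had Efnb2 at 61.1 ± 24.7 CPM, no higher than the 68.2 ± 11.4 CPM of pericytes (SD, n = 4). Hey1 was not called, at 48.3 ± 6.19 against 30.6 ± 25.2 CPM (SD, n = 4).

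Of the 34 further Notch pathway genes, 25 were tested here, 7 were higher and 7 were lower in endothelial cells. Notch3, the receptor typical of mural cells, was at 34.6 ± 34.4 against 958 ± 130 CPM (SD, n = 4), a log2 fold change of -4.99 ± 0.50 (edgeR adjusted p = 2.98e-05). Heyl, a Notch target, and Notch2 were also lower in endothelial cells, at 3.59 ± 3.63 against 65.0 ± 20.2 CPM and 1.68 ± 1.33 against 37.9 ± 6.31 CPM. Lfng and Mfng, which add sugars to Notch receptors, and the ligands Dll1 and Jag2 were higher in endothelial cells. The fold for Lfng was 3.77 ± 0.34 on the log2 scale, at 164 ± 48.1 against 12.6 ± 7.45 CPM.

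Pericytes carried RNA of endothelial marker genes, at a level beside endothelial cells that differed by gene. Whether pericytes made this RNA themselves was not tested. The sum of the 7 endothelial markers in pericytes was 17.0% of its level in blood endothelial cells, between 11.7% and 40.3% over the libraries. Sema3g stood at 50.7% of its blood endothelial level, with 118, 75.8, 26.9 and 0 CPM in pericytes of libraries 1 to 4, and was not called (log2 fold change 1.16 ± 0.54, edgeR adjusted p = 0.126). Only 11 of 107 pericytes had a UMI of Sema3g. Of these, with all UMIs of each cell, 6 also had Notch4 where 0.72 were expected if the genes were spread independently, 7 also had Dll4 (1.18 expected) and 8 also had Ephb4 (2.51 expected). Depth raises such counts, and at 2400 UMIs the pairs were seen in only 1, 2 and 1 cells.

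The comparison was repeated without the 25% of pericytes highest in endothelial markers of each library, a setting added after the data were seen, which left 79 of 107 pericytes. This choice lowers by construction the marker sum, to 3.13% of the blood endothelial level, and genes found in the same cells. Sema3g and Notch4 had 0 UMIs in the remaining pericytes, at least 38.0-fold and 26.4-fold lower than in blood endothelial cells against a floor of 3 counts, and Dll4 had 3 UMIs. The levels of Jag1, Gja4 and Nr2f2 stayed at 322, 184 and 544 CPM, beside 336, 190.1 and 497 CPM in all pericytes. Efnb2 and Notch1 were still at 30.9% and 39.5% of their blood endothelial levels. Sema3g was called under this setting (edgeR adjusted p = 1.09e-07), which is no independent support since its UMIs lay in the cells left out, and the other 8 genes called before were still called in the same direction.

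**Figure D3:**
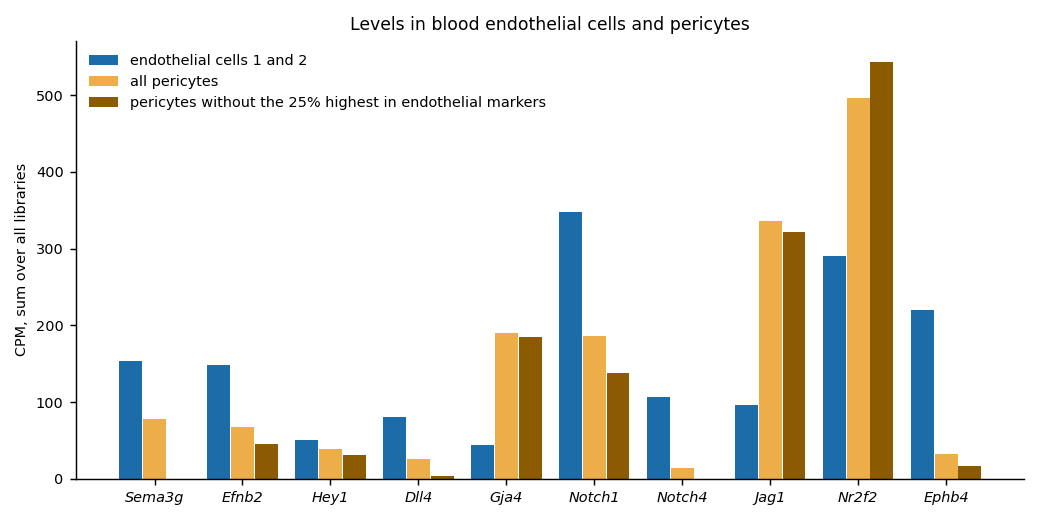
Level of the 10 genes (CPM over all libraries, y axis from 0) in blood endothelial cells, in all pericytes and in pericytes without the 25% highest in endothelial markers. The bars of Sema3g and Notch4 reach 0 in the last group, while Gja4, Jag1 and Nr2f2 remain above the endothelial bars.

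The joint presence of the genes in single cells was counted in endothelial cells 1. A UMI of Gja4 was found in 46 of the 190 cells. At 2400 UMIs per cell, 176 cells remained, and for each pair of genes the cells with both were set against the number expected from the share of each gene within each library. This is a description over cells of the same libraries and has no test. Of 43 pairs with 3 or more expected cells, 22 had more cells than expected, and the median ratio over these pairs was 1.01.

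A few pairs departed from expectation, and those with the highest ratios were found among Sema3g, Gja4, Jag1, Efnb2 and Hey1. Gja4 and Jag1 were found together in 11 cells where 4.48 were expected, and Sema3g and Gja4 in 17 cells where 7.07 were expected. For Sema3g and Hey1 the numbers were 10 and 4.68, for Efnb2 and Gja4 they were 13 and 6.28, and for Sema3g and Jag1 they were 18 and 9.58. The number was above expectation in 4 of 4 libraries for Sema3g and Jag1, in 3 for Gja4 with Jag1, Sema3g and Efnb2, and in 2 for Sema3g and Hey1. Efnb2 and Hey1 were together in 9 cells where 5.28 were expected, above expectation in 3 libraries. Hey1 and Jag1 were together in 5 cells where 2.96 were expected, above it in 2 libraries. Of the same 5 genes, Sema3g and Efnb2 (15 cells against 14.8) and Efnb2 and Jag1 (10 against 9.66) were at expectation. Hey1 and Gja4, at 7 cells, had only 1.77 expected and were above it in 2 libraries, and at full depth this pair had 29 cells against 14.1. The other pairs named above expectation stayed above it at full depth, but all with smaller ratios. Gja4 had 32 cells against 20.6 with Jag1, 38 against 24.9 with Sema3g and 35 against 26.3 with Efnb2. Sema3g had 40 against 29.5 with Hey1 and 52 against 39.7 with Jag1. Hey1 had 45 against 34.0 with Efnb2 and 30 against 23.1 with Jag1. The median ratio over all pairs was 1.13 at full depth.

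Dll4 and Nr2f2 stood at the other end, with 3 cells where 6.09 were expected, above expectation in 0 of 4 libraries. Dll4 and Gja4 were together in 2 cells where 3.68 were expected, and at full depth in 22 cells where 20.8 were expected. Dll4 and Nr2f2 at full depth had 34 cells where 37.1 were expected, so both pairs were near expectation there. In endothelial cells 2, where 10 pairs had 3 or more expected cells, ratios lay between 0.86 and 1.15. In pericytes the range over 15 such pairs was 0.85 to 1.32.

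**Figure D4:**
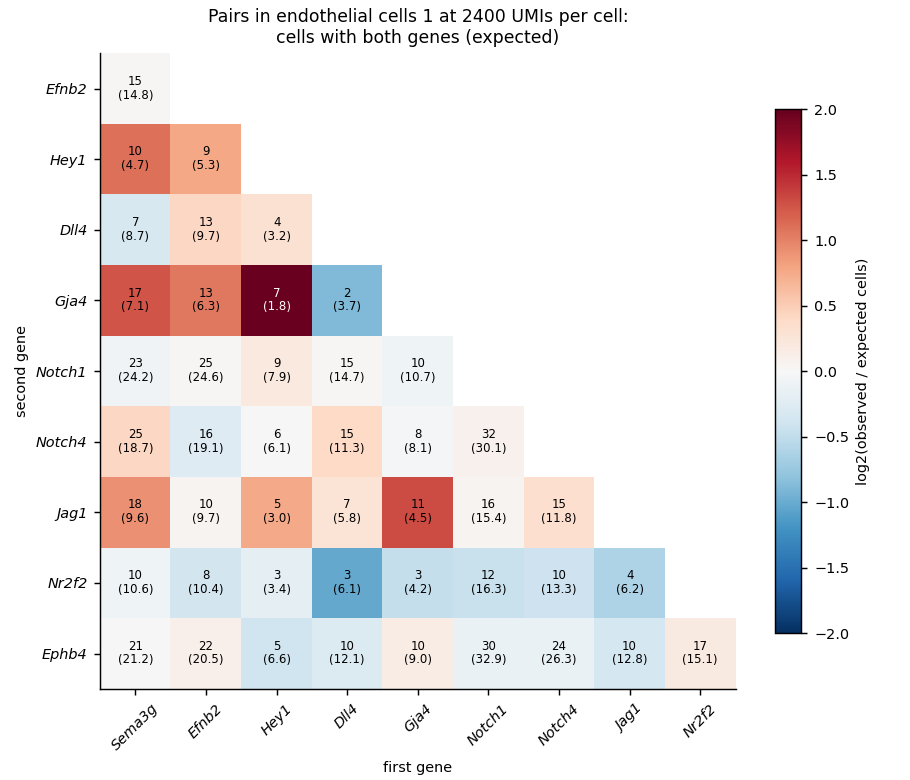
Pairs of the 10 genes in endothelial cells 1 thinned to 2400 UMIs, with the first gene on the x axis and the second on the y axis. Each square prints the cells with both genes and, in brackets, the number expected, and its colour is the log2 ratio. Red squares join Gja4 to Hey1, Jag1, Sema3g and Efnb2. Others join Hey1 to Sema3g, Efnb2 and Jag1, and Sema3g to Jag1. The blue squares lie mostly in the row of Nr2f2 and at Dll4 with Gja4.

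The same question was put to sums of cells. Endothelial cells 1 with a UMI of Gja4 were set against those without, in libraries 1, 2 and 4, which had 5 or more cells on both sides. Cells with Gja4 had more Sema3g and Jag1. Of the 9 other genes, all tested, 2 were higher and 0 were lower, and over all 4810 genes tested 1.1% were called, 0.873% higher and 0.229% lower. Cells with Gja4 were also deeper, with a median of 12078 against 6312 UMIs. With cells thinned to 2400 UMIs Sema3g and Jag1 were still called. That split was drawn anew from the UMIs kept, so its groups differ: 22 of 176 thinned cells had a UMI of Gja4.

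Sema3g stood at 379, 543 and 376 CPM in cells with Gja4 of libraries 1, 2 and 4 and at 133.5, 119.9 and 178 CPM in cells without. The groups lay apart, with a log2 fold change of 1.65 ± 0.24 (edgeR adjusted p = 0.00153). Jag1 stood at 149, 420.3 and 164 CPM against 61.0, 44.3 and 83.2 CPM, also without overlap and with library 2 far above the others. For Jag1 the log2 fold change was 1.94 ± 0.35 (edgeR adjusted p = 0.00816). Hey1 stood at 136.5, 113 and 79.6 CPM against 34.8, 73.0 and 0 CPM, higher in 3 of 3 libraries without overlap, and was not called (log2 fold change 1.62 ± 0.40, edgeR adjusted p = 0.0747). Dll4, Notch1, Notch4, Nr2f2, Ephb4 and Efnb2 were not called, with adjusted p-values from 0.432 to 0.996. Efnb2 was called without library 2, with a log2 fold change of 1.37 (edgeR adjusted p = 0.0019).

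Arterial genes from the further list were found beside them. Of 12 tested, 3 were higher in cells with Gja4: Fbln5, an elastic fibre protein, at 369 ± 63.9 against 69.2 ± 74.3 CPM (SD, n = 3), Sox17 at 542 ± 126 against 229 ± 85.2 CPM, and Stmn2 at 239 ± 202 against 55.7 ± 35.5 CPM. The log2 fold changes of Fbln5 and Stmn2 were 3.07 and 1.85. Of 9 capillary genes, Car4 and Timp4 were lower, at 60.8 ± 47.4 against 251 ± 148 CPM and 269.8 ± 108 against 842 ± 299.7 CPM. Of 9 venous genes tested, Aplnr was lower and Cpe was higher. Of 22 further Notch pathway genes tested, Notch3 alone was called, at 109.5 ± 64.7 against 3.29 ± 3.68 CPM.

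Pericyte markers moved with this split. Their summed level was 1766 CPM in cells with Gja4 and 662 CPM in cells without, and a UMI of Rgs5 or Pdgfrb was found in 47.8% and 25.7% of cells. Both genes were among those called higher. Hemoglobin genes summed to 9942 CPM in cells with Gja4 of library 4. Of 16 genes that respond to tissue dissociation, Fos and Hspa1a were called higher and 0 were called lower. The median log2 fold change was 0.49 over these 16 and 0.007 over all genes tested. In a setting added after the data were seen, only cells without a UMI of Rgs5 or Pdgfrb were kept, which left 2 libraries. There, Sema3g and Jag1 were still called by edgeR, with log2 fold changes of 2.65 (adjusted p = 0.00553) and 3.23 (adjusted p = 0.0135).

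In those cells, thinned to 2400 UMIs, Sema3g and Gja4 were found together in 13 of 122 cells where 5.52 were expected, and Gja4 and Jag1 in 9 where 4.33 were expected. Gja4 and Nr2f2 were together in 1 of these cells where 3.04 were expected, beside 3 where 4.19 were expected in all endothelial cells 1. At full depth this pair had 3 cells (8.64 expected) in the subset and 20 cells (20.4 expected) in all endothelial cells 1. The split depends on library 1: of 53 genes called, 3 were called without it, over 2 libraries, and Sema3g and Jag1 then had adjusted p-values of 0.249 and 0.254. Without library 2 and without library 4, 85 and 127 genes were called. Jag1 was also not called by DESeq2 (adjusted p = 0.0773).

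Endothelial cells 3, with their lymphatic markers, had another combination of the genes. They had high Efnb2 and no detected Sema3g or Notch4, genes that were also low in endothelial cells 2. Endothelial cells 3 were set against blood endothelial cells in a comparison added after the data were seen, with 26, 4, 3 and 3 cells in libraries 1 to 4. Of the 10 genes, all tested, 3 were called higher and 2 lower, and over all 4780 genes 15.5% were called, 5.33% higher and 10.2% lower. Without library 1, which holds most of the cells, 350 genes were called in place of 742.

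Efnb2 stood at 452, 417, 500.1 and 534 CPM in endothelial cells 3 and at 135, 180.1, 133 and 138 CPM in blood endothelial cells, far apart in every library. Its log2 fold change was 1.46 ± 0.37 (edgeR adjusted p = 0.000814). The call was lost without the low-count filter (adjusted p = 0.0937) and in thinned cells (adjusted p = 0.0688). Sema3g had 0 UMIs in endothelial cells 3 against 434 in blood endothelial cells, at least 16.7-fold lower against a floor of 3 counts. Notch4 had 0 against 301 UMIs, at least 11.6-fold lower. Both bounds rest on endothelial cells 1, with 429 UMIs of Sema3g and 289 of Notch4. Endothelial cells 2 held only 5 and 12 UMIs.

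Gja4 stood at 255.5, 46.3, 292 and 0 CPM in endothelial cells 3 and at 54.5, 22.5, 12.1 and 67.7 CPM in blood endothelial cells. Libraries 1 to 3 were higher and library 4 was lower, so the groups overlapped. The values of endothelial cells 3 rest on 69, 1, 7 and 0 UMIs, so libraries 2 and 4 say little on direction. The log2 fold change was 1.99 ± 0.50 (edgeR adjusted p = 0.000835), and was lost with DESeq2 (adjusted p = 0.165) and without library 3 (adjusted p = 0.0897). Nr2f2 stood at 511, 324, 1042 and 1514 CPM against 278.5, 359, 277 and 203 CPM, lower only in library 2. Its log2 fold change of 1.15 ± 0.36 (edgeR adjusted p = 0.0113) was called in 4 of 10 alternatives, with adjusted p from 0.000459 to 0.399, and was lost without library 1, 3 or 4 (0.0604, 0.234 and 0.275). Dll4, Jag1, Notch1, Hey1 and Ephb4 were not called, with adjusted p-values from 0.282 to 0.909.

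Of the further Notch pathway genes, 20 were tested, 3 were higher and 2 were lower in endothelial cells 3. Dtx1, a ubiquitin ligase that regulates Notch, had 104 UMIs in 36 endothelial cells 3 and 1 UMI in 264 blood endothelial cells, a ratio of 899 (exact 95% interval 158 to 35859). The ligand Jag2 and the target Nrarp were lower, at 25.5 ± 29.7 against 159 ± 14.0 CPM and 2.78 ± 5.56 against 77.0 ± 20.5 CPM (SD, n = 4). Among semaphorins, Sema3d had 189 UMIs in endothelial cells 3 and 1 in blood endothelial cells, the reverse of Sema3g. The receptor subunit Nrp1 had 0 and 1967 UMIs.

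**Figure D5:**
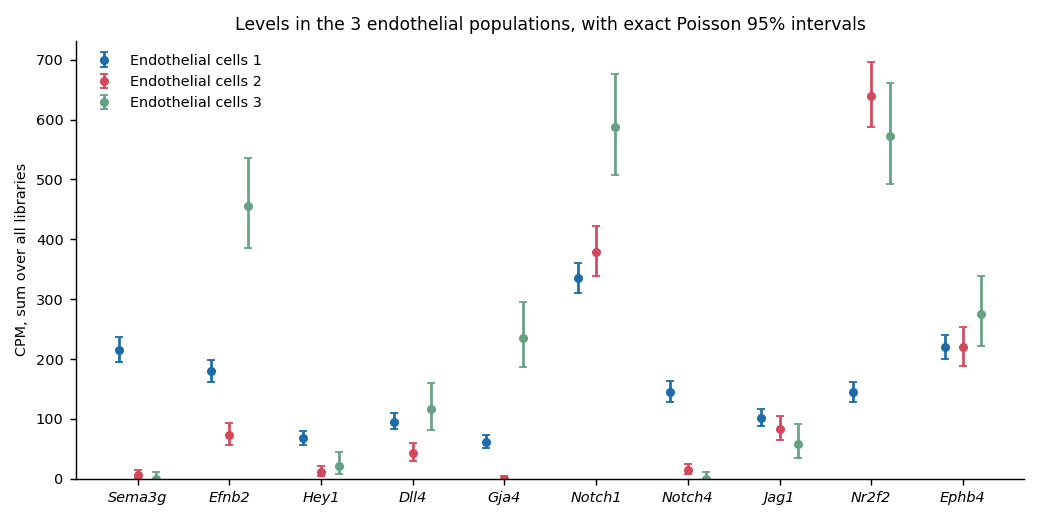
Level of the 10 genes (CPM over all libraries, y axis from 0) in the 3 endothelial populations, with exact Poisson 95% intervals, which cover counting error only. Endothelial cells 3 are highest for Efnb2 (456 CPM) and Gja4 (236 CPM) and at 0 for Sema3g and Notch4, and endothelial cells 2 are at 0 for Gja4.

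Some of the 10 genes had a second place of expression outside vessels. Sema3g stood at 383, 352 and 376 CPM in nerve cells 1 of libraries 1 to 3, and at 128 and 264 CPM in nerve cells 2 of libraries 1 and 2, the libraries with 5 or more cells. At 2400 UMIs, 42.6% of nerve cells 1, 26.7% of nerve cells 2 and 29.5% of endothelial cells 1 had a UMI of Sema3g. In tendon fibroblasts 1 the count was 0 of 161 cells. The 7 endothelial markers summed to 43.3 and 34.1 CPM in nerve cells 1 and 2, beside 6714 CPM in endothelial cells 1, with 2 and 5 of the 7 at 0.

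Ordered by its level over all cells, Sema3g was highest in nerve cells 1 (360.0 CPM, exact Poisson 95% interval 295 to 435), then nerve cells 2 (218 CPM, 180 to 261) and endothelial cells 1 (215 CPM, 195 to 237), whose intervals overlap, then pericytes (77.9 CPM). Nerve cells 3, endothelial cells 2 and all others were at 14.4 CPM or less, and the 4 fibroblast populations, immune cells, red blood cells and endothelial cells 3 had 0 UMIs. The genes whose log2(CPM + 10) followed it best over the 13 populations were Nes (Pearson r = 0.93), P2ry2 (0.92) and Jam3 (0.89), among 7181 genes compared. These r values are descriptive, and the 13 points come from the same 4 libraries.

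Nr2f2 was highest over all cells in endothelial cells 2 (640.2 CPM), tendon fibroblasts 3 (607 CPM) and endothelial cells 3 (572 CPM), whose exact Poisson 95% intervals of 587 to 697, 529.7 to 691 and 493 to 660.3 CPM overlap. Pericytes followed at 497 CPM. Nerve cells 1, 2 and 3 held 34, 91 and 36 UMIs of Nr2f2 among 300029, 528516 and 138770 UMIs. Endothelial cells 1 held 288 among 1992030. In tendon fibroblasts 3 the 4 libraries held 45, 3, 1 and 2 cells, with 408, 1512, 1144 and 1381 CPM, so library 1 gives nearly all cells. The other fibroblasts were low, with 9.64 CPM in tendon fibroblasts 1, 15.2 CPM in tendon fibroblasts 2 and 14.4 CPM in bursal fibroblasts. The endothelial list was at 78.5 CPM and the pericyte list at 558 CPM in tendon fibroblasts 3. The genes most like Nr2f2 over the 13 populations were Cttnbp2 (Pearson r = 0.93), Atp9a (0.92) and Akap12 (0.89).

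The order of the remaining genes over all cells was as follows. Among the ligands, Dll4 was highest in endothelial cells 3 and 1 (116 and 95.4 CPM, with overlapping intervals), then endothelial cells 2 (43.2 CPM) and pericytes (26 CPM), and at 0.567 CPM or less elsewhere. Jag1 was highest in pericytes (336 CPM), then endothelial cells 1 (101 CPM), endothelial cells 2 (82.7 CPM) and tendon fibroblasts 3 (70.4 CPM), and each of the last 3 overlapped its neighbour. Notch1 was highest in endothelial cells 3 (587 CPM), and endothelial cells 2 (379 CPM) and 1 (335 CPM) overlapped.

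Notch4 was the most restricted receptor, at 145 CPM in endothelial cells 1, 14.4 CPM in endothelial cells 2, 14.2 CPM in pericytes and 3.78 CPM or less elsewhere. Hey1 was highest in endothelial cells 1 (67.8 CPM), then pericytes (38.5 CPM). Ephb4 was at 275, 219 and 219 CPM in endothelial cells 3, 2 and 1, with overlapping intervals, and at 31.8 CPM or less in every other population.

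Efnb2 had a place in bursal fibroblasts, at 108, 129.5 and 114 CPM in libraries 1, 3 and 4, a mean of 117 ± 11 CPM (SD, n = 3). Tendon fibroblasts 1 and 2 were lower, at 16.3 ± 7.83 CPM (SD, n = 4) and 7.61 ± 1.62 CPM (SD, n = 3). At 2400 UMIs, 37.8% of bursal fibroblasts had a UMI of Efnb2, against 3.11% of tendon fibroblasts 1. Before thinning, the median cell had 20284 UMIs in bursal fibroblasts and 8824 UMIs in tendon fibroblasts 1. Notch1 was seen in nerve cells 3 at 321, 138 and 40.4 CPM in libraries 1, 2 and 4, and in immune cells at 73.4 CPM over all cells. Gja4 was narrower, with 0 UMIs in 9 of the 13 populations and 1 UMI in nerve cells 1.

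In GENCODE M21 (GRCm38), the genes lie on 8 chromosomes, with Dll4, Notch1 and Jag1 all on chromosome 2. Dll4 spans chr2:119325784-119335962 on the plus strand, Notch1 chr2:26457903-26516663 and Jag1 chr2:137081456-137116644, both on the minus strand. Notch4 spans chr17:34564268-34588503 and Ephb4 chr5:137350109-137378669, both on the plus strand, and Hey1 chr3:8663359-8667256 on the minus strand. Sema3g spans chr14:31217860-31230352 on the plus strand. Efnb2 at chr8:8617434-8661242, Gja4 at chr4:127311421-127314039 and Nr2f2 at chr7:70351944-70366735 are on the minus strand. Exons of Dll4, Notch1, Nr2f2 and Ephb4 overlap genes on the other strand, and whether strand was used in counting is not given in the sources used here, so reads of those partners could be included.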

How the data were processed

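Single-cell 3-prime libraries (10x Genomics, version 3 chemistry) were analysed from the authors' deposited count table of UMIs per gene and cell, in whole numbers. Per the submitters' processing notes, Cell Ranger, Seurat 2.3.4, R 3.5.2 and the build mm10 were used; cell filters, clustering and doublet treatment are not given in the sources used here. A second deposited table holds natural log values equal to ln(1 + 10000 × count / total), within 5e-10, and was used for that check only. Population names come from the authors' deposited cell table. Of 15750 gene rows, 4 under repeated names (0.0186% of UMIs) were left out. No cell was removed and no doublet caller was run.

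UMIs were summed per library and population (5 or more cells; 3 or more for endothelial cells 3) and the sums were compared in R 4.3.3 by the quasi-likelihood F-test in edgeR 4.0.16, using TMM normalization, the filterByExpr filter, library as a block and Benjamini-Hochberg adjustment over all genes tested, at 0.05. Both sums of a comparison come from the same library; the deviations of such sums correlated between -0.02 and 0.15. DESeq2 1.42.0 and other settings were alternatives. In simulated counts, 200 genes were given a log2 change of 2, of which 97.0% were recovered for endothelial cells 1 against 2 (5126 genes), 93.5% for blood endothelial cells against pericytes (5775 genes), 94.5% for all endothelial against other cells (9385 genes), 93.5% for the Gja4 split (4810 genes) and 72.5% for endothelial cells 3 (4780 genes). The false share of calls in these simulations was 6.73%, 4.59%, 6.44%, 5.08% and 2.68% in the same order, so it was above the 5% aimed at in 3 of 5 comparisons. Thinning to 2400 UMIs left out 114 shallower cells. Intervals are exact Poisson, and intervals and floors (3 counts) cover counting error only.

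The 10 genes, the further lists and the settings were chosen with earlier results of these data known. The 10 genes are always named; of each further list, up to 4 genes in each direction by fold were eligible, if called, alike in every library and at 20 CPM or more on the higher side (for the Gja4 split also 5 of all genes at 100 CPM). For Sema3g and Nr2f2 the 3 genes with the highest Pearson r over populations were named. GC and TATA boxes were added after the first 4 motifs were searched: RBPJ, ETS (GGAAGT, in 1 of 9 promoters and 19.7% of all), a forkhead site (TGTTTAC, 0 of 9 and 3.17%) and a nuclear receptor site (AGGTCA, 0 of 9 and 14.0%).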

Additional observations from a re-analysis of the deposited data

Results flagged for a closer look

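Of 29 groups of 4 libraries examined (1 gene in 1 population), 2 had a library far from the other 3, measured as the gap to its nearest neighbour over the whole range. Chance alone flags about 1 in 20 such groups. Efnb2 in endothelial cells 1 stood at 262 CPM in library 2 (126 UMIs in 46 cells), with the other libraries between 149 and 161 CPM. Ephb4 in pericytes stood at 108 CPM in library 3, from 8 UMIs in 11 cells, with the other libraries between 26.2 and 27.2 CPM. Library 3 is also the library whose pericytes carried the most RNA of the endothelial marker list, at 40.3% of its blood endothelial level. The part of that RNA in the Ephb4 value was not tested.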

How the results depend on the processing

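Of 507 values of single genes under alternative settings, 475 kept their side of the threshold, 22 were no longer called and 10 became called. A change of direction was counted only where the main or the alternative value was called, and 0 such changes were found. Values not called in either could change direction, as Notch1 did in endothelial cells 1 against 2 (log2 fold changes from -0.55 to 0.14). Counts of called genes moved by over 1.5 times in some settings; fewer genes were tested in thinned cells, and other causes were not tested. For endothelial cells 1 against 2 (933 genes), DESeq2 called 570, thinned cells 293, rebuilt clusters 607, and leaving out a library gave 484 to 997. Against pericytes (2008), no filter gave 3024 and thinned cells 631. Against all other cells (2929), thinned cells gave 1300. For the Gja4 split (53), DESeq2 called 17, no filter 146, thinned cells 15, endothelial cells without those highest in pericyte markers 22, and leaving out a library gave 3 to 127. For endothelial cells 3 (742), no filter gave 1148, thinned cells 178, and leaving out a library 350 to 742. Pairs found together more than expected rose from 22 to 42 with all UMIs of each cell. Without the replicate block, the counts were 880, 2130, 3098, 34 and 940 in the order of the comparisons above. Low cell numbers limit endothelial cells 3, nerve cells 3 and tendon fibroblasts 3.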

Other observations

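The Notch ligands Dll1 and Jag2 divided the endothelial populations between them. Dll1 was at 240 CPM over all endothelial cells 2, 94.9 CPM in endothelial cells 3 and 44.2 CPM in endothelial cells 1. Jag2 was at 191 CPM in endothelial cells 1, 75.5 CPM in endothelial cells 2 and 49.0 CPM in endothelial cells 3. Both were at 16.2 CPM or less for Dll1 and 3.61 CPM or less for Jag2 in every nerve, fibroblast, immune and red blood cell population.

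Dtx1 was found almost only in endothelial cells 3. It had 104 UMIs there, 1 in endothelial cells 2, 2 in immune cells and 0 in the other 10 populations, and 56.2% of endothelial cells 3 had a UMI of it at 2400 UMIs per cell.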
